A study of Mus musculus with 8 samples.

Results

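Genes widely used as markers of hepatic stellate cells and of the myofibroblasts they can become were followed here in mouse livers carrying an activated oncogene: Acta2, Tagln, Des, Pdgfrb, Lrat, Reln, Dcn, Postn, Tgfb1 and Lox. They are a fixed list of 10 names, found on the array through the accession of each probe. Of the 10, 9 had a probe well above background and were tested among 15834 genes in all. The other, Lox, had 2 probes, and neither was well above background on any of the 8 arrays.

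RNA from whole liver of 8 mice was measured on 1-colour arrays, 1 array per mouse. Per the labels, the groups were 2 AKP::Keap1 females, 2 AKP females, 2 AKP::Keap1 males and 2 AKP males. All 8 mice carried the activated oncogene and mutant p53 (R172H), expressed specifically in the liver, and AKP::Keap1 mice in addition had Keap1 deleted. The study's question was what deleting Keap1, whose product normally holds the transcription factor Nrf2 in check, does to bile duct cancer driven by these alleles. No liver without the oncogene and mutant p53 is among the samples, the promoter that restricts the alleles to the liver and the age of the mice are not given in the sources used here, and whole liver was not separated into tumour and surrounding tissue.

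Stellate cells lie between hepatocytes and the sinusoidal endothelium and store vitamin A as retinyl esters, which the enzyme encoded by Lrat makes. After injury they can lose these stores and take on a myofibroblast state with contractile fibres and abundant collagen, a change that PDGF and TGF-beta signals promote. Several of the markers are shared with other cells: smooth muscle cells and pericytes also make Acta2, Tagln and Pdgfrb, portal fibroblasts make Dcn, and Tgfb1 is made by many cell types.

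Levels are log2 of the processed signal minus the 75th percentile of the same array, so that 0 is that percentile, and they compare arrays for 1 gene, not genes with each other. Differences were tested with limma over all 15834 genes, errors of differences are standard errors of that fit (n = 2 mice per group), and calls were made where the p adjusted by Benjamini and Hochberg's method was below 0.05. The number of arrays limits the precision. Per array, 65.7% to 70.7% of spots exceeded background clearly by the scanner software's own mark ("well above background"), and 0 were saturated. Keap1 itself was between -1.51 and -0.64 in AKP::Keap1 livers, against 1.55 to 2.05 in AKP livers (difference -2.85 ± 0.11, adjusted p = 0.000178). Where the probe for Keap1 lies relative to the deleted part is not given in the sources used here. All 12 hepatocyte markers listed were well above background on 8 of 8 arrays. Each of the 4 slides held 1 group, and the females were scanned on another day than the males, so slide and group, and sex and scan day, cannot be told apart.

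By genotype, the markers split. Acta2, Tagln and Pdgfrb rose in AKP::Keap1 livers, Reln, Dcn and Postn fell, and Des, Lrat and Tgfb1 were not called. That is 3 of 9 tested genes higher, 3 lower and 3 not called, with a median difference of -0.09 against -0.004 over all 15834 genes. In this comparison 39.0% of all genes were called, 21.7% higher and 17.4% lower, so a count of 6 of 9 stands against a background in which calls were common. The 4 AKP::Keap1 and the 4 AKP arrays did not overlap for 4 of the 9 genes (Acta2, Tagln, Pdgfrb and Reln), and for 26.9% of all genes.

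**Figure D1:**
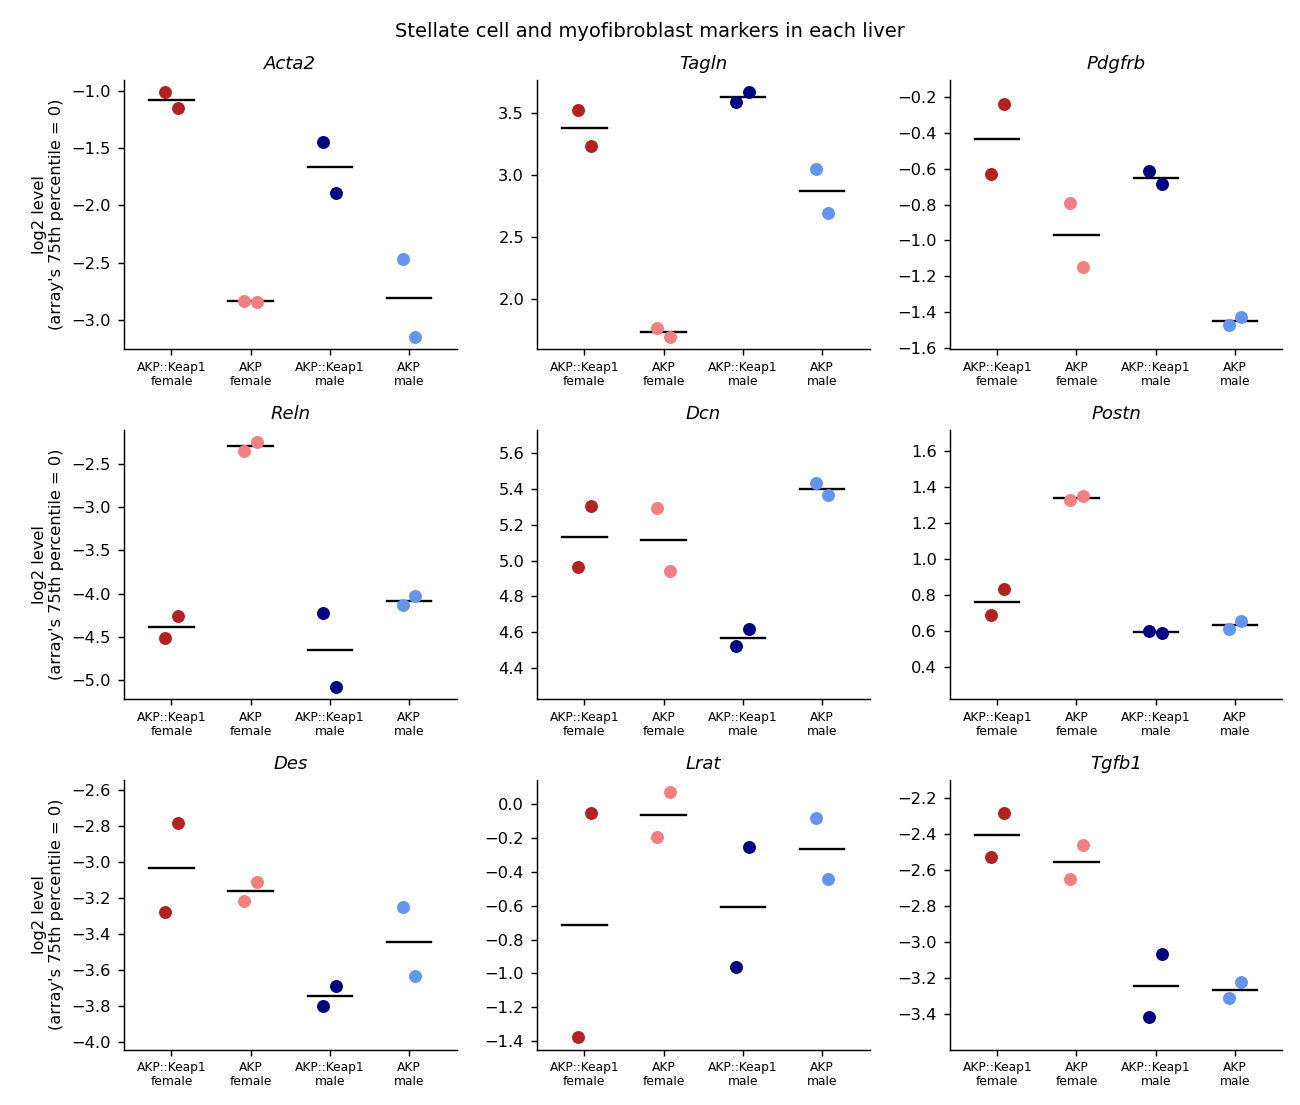
Log2 level of the 9 tested markers in each of the 8 livers, relative to the 75th percentile of each array. Points are mice, black lines are group means (n = 2), and the vertical scale differs between panels. AKP::Keap1 livers sit above AKP livers of the same sex for Acta2, Tagln and Pdgfrb, and AKP females stand apart from the other 3 groups for Reln, Postn and Tagln.

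Acta2 encodes smooth muscle alpha-actin, the usual marker of the myofibroblast state. Its level was -1.01 and -1.15 in AKP::Keap1 females, against -2.83 and -2.84 in AKP females. In males it was -1.45 and -1.89 in AKP::Keap1 livers, against -2.46 and -3.15 in AKP livers. Every AKP::Keap1 liver was thus above every AKP liver. Over both sexes the difference was 1.45 ± 0.18 (2.73-fold, adjusted p = 0.00284). It was called in females (1.76 ± 0.26, 3.38-fold, adjusted p = 0.00924) and in males (1.14 ± 0.26, 2.20-fold, adjusted p = 0.0243). The probe for Acta2 is spotted 10 times on the array, and the SD between its spots on 1 array, a technical error that leaves out the spread between mice, was between 0.06 and 0.12 on the log2 scale. In bulk tissue, a change in the number of cells that make a transcript and a change in the RNA per cell cannot be told apart, here or for the genes that follow.

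Some relatives of Acta2 were called with it, the smooth muscle gamma-actin Actg2 and the skeletal actin Acta1. Both passed the background mark on 4 of 4 AKP::Keap1 arrays and 0 of 4 AKP arrays. They were thus kept among the tested genes only through the group where they are high. That puts Actg2 at least 2.29-fold and Acta1 at least 2.11-fold higher. Their limma adjusted p (0.0085 and 0.00143) belongs to the differences with dim AKP signals included, not to these folds. The cardiac actin Actc1 was not called (1.16 ± 0.44, adjusted p = 0.0779, above background on 3 of 4 AKP::Keap1 and 1 of 4 AKP arrays). In a fold given as at least a value, a dim array counts with the lowest signal that passed the mark there, or with its own signal if that is higher. The coding sequences of the actins are much alike, and how far a probe for 1 of them also binds the others was not tested.

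The promoter of Acta2 is shown because this gene had the largest genotype difference among the markers and because its control by the serum response factor, which binds CArG boxes, is textbook knowledge. The sequence is RefSeq's (GRCm38.p6, chr19:34255374-34255623, minus strand, the 250 bases before the transcription start), with capitals marking letters that match a CArG box except for 1 G or C in its A/T core.
Acta2: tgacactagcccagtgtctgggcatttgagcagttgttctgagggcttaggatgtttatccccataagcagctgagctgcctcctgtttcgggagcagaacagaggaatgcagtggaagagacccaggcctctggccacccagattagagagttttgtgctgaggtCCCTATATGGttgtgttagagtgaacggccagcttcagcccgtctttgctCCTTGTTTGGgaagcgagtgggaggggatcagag
The 2 CArG-like stretches lie 84 to 75 and 34 to 25 bases before the start. The box reads alike on both strands, so 1 search covers both. A stretch of this kind was present in 7.24% of 32851 promoters of the same length, and an exact CArG box, which the Acta2 window lacks, in 1.47%. Promoters were matched for 6 of the 10 markers (Acta2, Des, Lrat, Reln, Postn and Tgfb1, 7 promoters in all), of which Acta2 and Lrat held a CArG-like stretch and none an exact box. No promoter of Tagln, Pdgfrb, Dcn or Lox was searched, so nothing is said of boxes in them. In this match 1 chromosome was left out for the markers, but not for the 32851 promoters. Markers on it could not be matched, which need not be the reason for each unmatched marker. Srf, the gene of the factor itself, was not called by genotype (-0.06 ± 0.13, adjusted p = 0.721).

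Tagln encodes transgelin, an actin-binding protein of smooth muscle and myofibroblasts. Its level was 3.52 and 3.23 in AKP::Keap1 females, against 1.76 and 1.69 in AKP females. Male livers had 3.59 and 3.67 with AKP::Keap1 and 3.05 and 2.69 with AKP. AKP females were the lowest group, and the lowest AKP::Keap1 liver was above the highest AKP liver. The difference was 1.21 ± 0.12 over both sexes (2.31-fold, adjusted p = 0.00156), 1.65 ± 0.17 in females (adjusted p = 0.00417) and 0.76 ± 0.17 in males (adjusted p = 0.0238).

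Des encodes desmin, the intermediate filament by which stellate cells are stained in rodents. It did not follow the other contractile markers. Its level was -3.28 and -2.78 in AKP::Keap1 females, against -3.22 and -3.11 in AKP females, and -3.80 and -3.69 in AKP::Keap1 males, against -3.25 and -3.64 in AKP males. The groups overlapped or lay close together, and the difference was -0.09 ± 0.15 (95% interval -0.45 to 0.28, adjusted p = 0.674). Its probe also has 10 spots per array, with an SD between spots of 0.05 to 0.11.

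Other genes of the contractile apparatus, from a list of 17, moved both ways. Of 15 tested, 5 rose, 2 fell and 8 were not called, with a median of 0.28. Over all genes, 21.7% were called higher and 17.4% lower. Actg2 counts among the rises, although it was kept only through its AKP::Keap1 arrays. Flna, the actin crosslinker filamin A, rose by 1.36 ± 0.17 (adjusted p = 0.00273) and Cnn2, a calponin, by 0.41 ± 0.10 (adjusted p = 0.0212). Beside Actg2, the other rises were the non-muscle myosin heavy chain Myh9 (0.33 ± 0.09, adjusted p = 0.0375) and the smooth muscle heavy chain Myh11 (0.55 ± 0.18, adjusted p = 0.0488, above background on 4 of 4 AKP::Keap1 and 3 of 4 AKP arrays). The tropomyosins Tpm1 and Tpm2, which line actin filaments, fell by 0.61 ± 0.12 (adjusted p = 0.0117) and by 0.64 ± 0.14 (adjusted p = 0.0152). Over 18 alternative settings the number called ranged between 3 and 7.

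Pdgfrb encodes the PDGF receptor beta, which is carried by stellate cells and pericytes and rises on activation. Its level was -0.63 and -0.24 in AKP::Keap1 females, against -0.79 and -1.15 in AKP females. AKP::Keap1 males had -0.62 and -0.69, against -1.47 and -1.42 in AKP males. The genotypes did not overlap, although the gap between the lowest AKP::Keap1 liver and the highest AKP liver was small. The difference was 0.67 ± 0.13 over both sexes (1.59-fold, adjusted p = 0.0102) and 0.80 ± 0.18 in males (adjusted p = 0.0259), and it was not called in females (0.53 ± 0.18, adjusted p = 0.0847).

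The ligands of the PDGF receptors were a list of 4 genes with the receptor gene Pdgfra beside them. Of these 5 genes, 4 rose, 0 fell and 1, Pdgfra, was not called (0.21 ± 0.15, adjusted p = 0.294), with a median of 0.90. Over all genes, 21.7% were called higher and 17.4% lower. Pdgfb, whose product binds the beta receptor, was at -0.35 and 0.31 in AKP::Keap1 females, against -1.05 and -1.57 in AKP females. In AKP::Keap1 males it was at 1.21 and 1.2, against -1.41 and -1.38 in AKP males. The 4 AKP::Keap1 livers were all higher, and the difference was 1.95 ± 0.18 (adjusted p = 0.00143). Pdgfd, another ligand of the beta receptor, rose by 0.99 ± 0.20 (adjusted p = 0.0109), Pdgfc by 0.90 ± 0.15 (adjusted p = 0.00592) and Pdgfa by 0.51 ± 0.14 (adjusted p = 0.0344). Pdgfa was called higher in females (1.26 ± 0.20, adjusted p = 0.0123) and was not called in males (-0.23 ± 0.20, adjusted p = 0.414). The female minus the male difference of Pdgfa was not called (1.49 ± 0.29, adjusted p = 0.0691).

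Tgfb1 encodes the cytokine that drives collagen production in myofibroblasts. Its own RNA was not called by genotype. Its level was -2.53 and -2.28 in AKP::Keap1 females, against -2.65 and -2.46 in AKP females, and -3.42 and -3.07 in AKP::Keap1 males, against -3.31 and -3.22 in AKP males. The genotypes overlapped in both sexes, and the 95% interval of the difference (0.09 ± 0.12, adjusted p = 0.588) ran between -0.20 and 0.38. The 10 spots of its probe differed by an SD of 0.02 to 0.07 per array.

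Among 27 other tested genes of TGF-beta activation, signalling and response, 8 rose, 2 fell and 17 were not called, with a median of 0.15. By comparison, 39.0% of all genes were called, 21.7% higher and 17.4% lower, and the share called in this list is close to that. Timp1, an inhibitor of matrix proteases, rose by 2.48 ± 0.14 (adjusted p = 0.000367). Itgb6 encodes a subunit of the integrin that releases active TGF-beta from its latent form on epithelial cells. It passed the background mark on 4 of 4 AKP::Keap1 and 0 of 4 AKP arrays, and was at least 3.35-fold higher. Itgb6 was thus kept only through its AKP::Keap1 arrays. Its limma adjusted p (0.00361) belongs to the difference with dim AKP signals included, not to this fold. Ltbp3, which binds latent TGF-beta, rose by 0.92 ± 0.16 (adjusted p = 0.00647). The falls were Smurf2, a ubiquitin ligase that acts on the receptors (-0.71 ± 0.08, adjusted p = 0.00212), and the co-receptor gene Tgfbr3 (-0.47 ± 0.15, adjusted p = 0.0496). Smurf2 was called in females (-1.14 ± 0.11, adjusted p = 0.0039) and not in males (-0.28 ± 0.11, adjusted p = 0.105). Its female minus male difference was not called (-0.86 ± 0.16, adjusted p = 0.0622). The number called ranged between 6 and 12 over the alternatives.

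Lrat and Reln mark the stellate cell rather than the myofibroblast. Lrat, which makes retinyl esters, was at -1.38 and -0.05 in AKP::Keap1 females, against -0.20 and 0.07 in AKP females. In AKP::Keap1 males it was at -0.96 and -0.25, against -0.08 and -0.44 in AKP males. Within each AKP::Keap1 group 1 liver was low and the other lay within or near the range of the AKP livers. The difference of -0.50 ± 0.32 was not called (95% interval -1.28 to 0.29, adjusted p = 0.257). Without the second AKP::Keap1 female, which was at -0.05, it was -0.83 and called (adjusted p = 0.0443, against a range of 0.0443 to 0.698 over 18 alternatives).

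Reln encodes reelin, a secreted glycoprotein that stellate cells make in the liver. It was at -4.51 and -4.26 in AKP::Keap1 females, against -2.35 and -2.24 in AKP females. It was at -4.22 and -5.08 in AKP::Keap1 males, against -4.14 and -4.03 in AKP males. The AKP females were the only high group, and in males the gap between the genotypes was small. The difference was -1.33 ± 0.20 over both sexes (2.51-fold lower, adjusted p = 0.00443) and -2.09 ± 0.28 in females (4.25-fold lower, adjusted p = 0.00786), and it was not called in males (-0.57 ± 0.28, adjusted p = 0.162).

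Of 15 other genes of retinoid-storing or resting stellate cells, 14 were tested: 1 rose, 3 fell and 10 were not called, with a median of -0.10. Among all genes, 21.7% were called higher and 17.4% lower. The rise was Rgs5, a regulator of G protein signalling that is also a pericyte marker. It was at -0.16 and 0.86 in AKP::Keap1 females, against -1.47 and -1.91 in AKP females, and at 0.53 and 0.34 in AKP::Keap1 males, against -1.12 and -1.02 in AKP males (1.77 ± 0.24, adjusted p = 0.00337). The falls were the peptide receptor gene Vipr1 (-0.40 ± 0.08, adjusted p = 0.0131), the transcription factor gene Lhx2 (-0.40 ± 0.11, adjusted p = 0.0289) and the matrix protein gene Ecm1 (-0.29 ± 0.09, adjusted p = 0.0457). In females alone Vipr1 (-0.33 ± 0.12, adjusted p = 0.1), Lhx2 (-0.35 ± 0.15, adjusted p = 0.144) and Ecm1 (-0.06 ± 0.13, adjusted p = 0.765) were not called. The female minus the male difference was called for 0 of the 14. Genes that were not called include Ngfr, Colec11, Hand2, Hgf and Cygb. The number called ranged between 1 and 8 over the alternatives, with 1 to 4 higher and 0 to 7 lower.

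Dcn encodes decorin, a small proteoglycan that binds collagen fibrils and TGF-beta. It was at 4.96 and 5.30 in AKP::Keap1 females, against 5.29 and 4.94 in AKP females, where the groups overlapped. It was at 4.52 and 4.62 in AKP::Keap1 males, against 5.43 and 5.36 in AKP males, where both AKP::Keap1 livers were lower. The difference was -0.83 ± 0.18 in males (1.77-fold lower, adjusted p = 0.0216) and 0.02 ± 0.18 in females (adjusted p = 0.956). Over both sexes it was -0.40 ± 0.12 (adjusted p = 0.0448), a call that was kept in 7 of 18 alternatives and lost, for example, without scaling between arrays (-0.09, adjusted p = 0.704, the highest over the alternatives, against a lowest of 0.00695). With the slide as a random block it was lost at the same difference (adjusted p = 0.222).

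Postn encodes periostin, a matrix protein that myofibroblasts secrete. It was at 0.69 and 0.83 in AKP::Keap1 females, against 1.33 and 1.35 in AKP females, and at 0.60 and 0.59 in AKP::Keap1 males, against 0.61 and 0.65 in AKP males. Here again the AKP females were high and the other groups lay close together. The difference was -0.58 ± 0.11 in females (adjusted p = 0.0186) and -0.04 ± 0.11 in males (adjusted p = 0.794). Over both sexes it was -0.31 ± 0.08 (adjusted p = 0.0243), which was kept in 9 of 18 alternatives and was 0.002 without scaling between arrays (adjusted p = 0.991, the highest over the alternatives, against a lowest of 0.00336). With the slide as a random block it was lost too (adjusted p = 0.168).

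None of the collagens tested was called lower, unlike Dcn and Postn. Of 17 matrix genes tested besides the markers, 10 rose, 1 fell and 6 were not called, with a median of 0.47. The shares of all genes were 21.7% higher and 17.4% lower. Col1a1, a chain of the main fibrillar collagen, was at 0.77 and 1.35 in AKP::Keap1 females, against -0.12 and -0.30 in AKP females, and at 1.02 and 0.85 in AKP::Keap1 males, against -0.56 and -1.14 in AKP males. All 4 AKP::Keap1 livers were above the AKP livers, and the difference was 1.52 ± 0.19 (adjusted p = 0.00266). Col3a1 (1.22 ± 0.10, adjusted p = 0.00112) and the fibrillin gene Fbn1 (1.02 ± 0.11, adjusted p = 0.0021) rose too. The collagen genes Col5a1 (0.23 ± 0.09, adjusted p = 0.09) and Col6a1 (0.09 ± 0.16, adjusted p = 0.687) were not called. The fall was Fn1, the fibronectin gene, which hepatocytes also express (-0.43 ± 0.10, adjusted p = 0.0154). The number of matrix genes called ranged between 8 and 12 over the alternatives. The summed level of the list, in units of the 75th percentile, went the other way, at 143 to 148 in AKP::Keap1 females, against 150 to 163 in AKP females, and 133 to 152 in AKP::Keap1 males, against 171.7 to 172.8 in AKP males. Bright probes carry such sums, here mostly that of Fn1.

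Lox encodes lysyl oxidase, which crosslinks collagen and elastin. Neither of its 2 probes was well above background on any array, so no level or difference is given for it. The 4 Lox-like genes were measured and none was called by genotype: Loxl1 differed by 0.77 ± 0.31 (adjusted p = 0.0915), Loxl2 by 0.32 ± 0.11 (adjusted p = 0.0577), Loxl3 by -0.04 ± 0.10 (adjusted p = 0.791) and Loxl4 by 0.46 ± 0.61 (adjusted p = 0.574). Of the 15 genes of collagen crosslinking and processing, these 4 included, 3 rose and 3 fell, with a median of 0.07. That is close to the share of all genes, 21.7% higher and 17.4% lower. P4ha3, a prolyl hydroxylase (0.54 ± 0.08, adjusted p = 0.00474), the collagen chaperone gene Serpinh1 (0.46 ± 0.08, adjusted p = 0.00752) and the procollagen C-proteinase enhancer gene Pcolce (0.58 ± 0.10, adjusted p = 0.0078) rose. The lysyl hydroxylase genes Plod1 (-0.62 ± 0.09, adjusted p = 0.0038) and Plod3 (-0.39 ± 0.10, adjusted p = 0.0271) and the procollagen C-proteinase gene Bmp1 (-0.41 ± 0.11, adjusted p = 0.0266) fell.

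**Figure D2:**
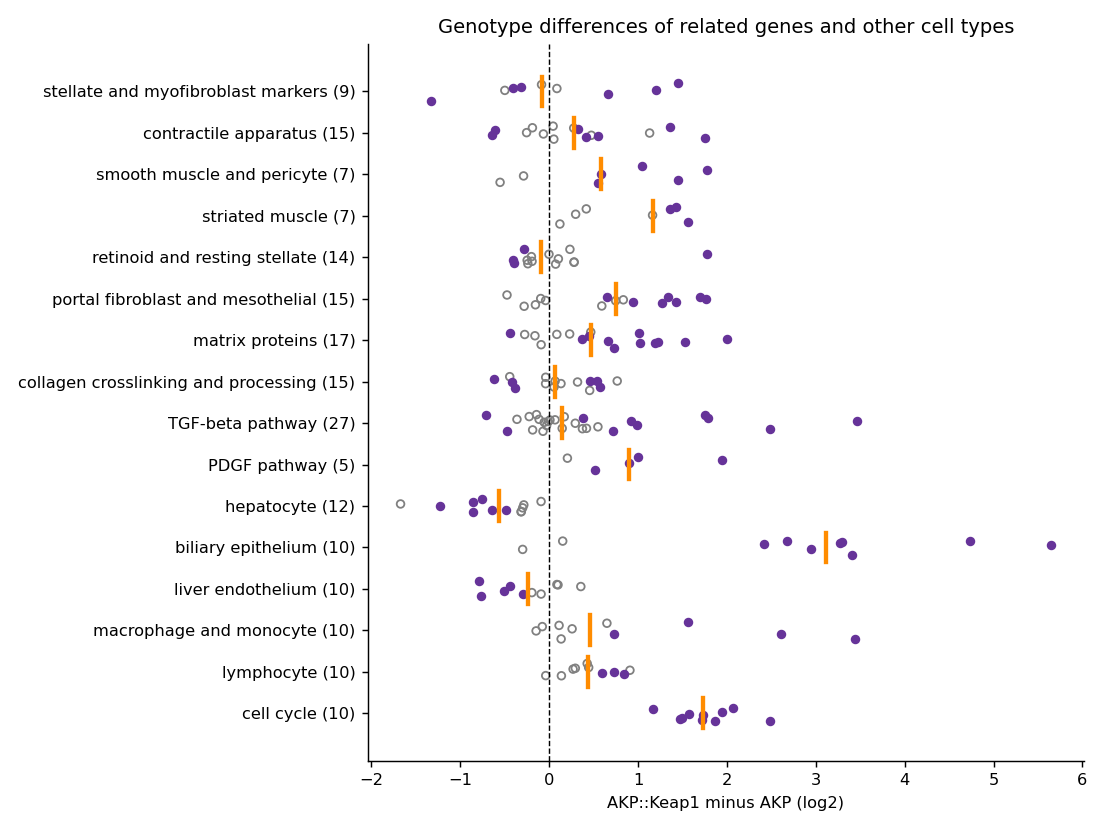
Genotype difference (AKP::Keap1 minus AKP, log2, over both sexes) of each tested gene in 16 lists, with the number tested in brackets. Filled points were called (adjusted p below 0.05), open points were not, orange bars are list medians, and the dashed line is the median of all genes. The stellate and myofibroblast markers spread to both sides with a median of -0.09, against medians of 0.47 for matrix proteins, 0.90 for the PDGF list and 3.11 for biliary epithelium. Signals below background enter the differences of dim genes.

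Markers of other cells that share genes with this list also differed by genotype, and their part in the marker differences was not tested. Counts of such lists stand against 21.7% of all genes called higher and 17.4% lower. Of 7 tested smooth muscle and pericyte genes, 5 rose and 0 fell, with a median of 0.59: beside Rgs5, the pericyte proteoglycan gene Cspg4 differed by 1.45 ± 0.17 (adjusted p = 0.00254, above background on 4 of 4 AKP::Keap1 and 2 of 4 AKP arrays) and the receptor gene Notch3 by 1.05 ± 0.18 (adjusted p = 0.00673). Pln and Lmod1 of this list were not well above background on any array. The summed level of the list is nearly all that of 1 bright probe, Mcam (difference -0.55 ± 0.19, adjusted p = 0.0606), and so does not describe the other genes. It was 54.0 to 86.7 in AKP::Keap1 females, against 79.3 to 90.6 in AKP females, and 77.6 to 102 in AKP::Keap1 males, against 141 to 156 in AKP males.

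Of 15 portal fibroblast and mesothelial genes 7 rose and 0 fell, with a median of 0.75. The shares of all genes were 21.7% higher and 17.4% lower. Fbln1 (1.76 ± 0.19, adjusted p = 0.00192), Thy1 (0.94 ± 0.14, adjusted p = 0.00457) and Cd34 (1.27 ± 0.21, adjusted p = 0.00614) are examples. None of the mesothelial genes of this list was called. Msln differed by 0.83 ± 0.40 (adjusted p = 0.139), Upk3b by -0.47 ± 0.40, Upk1b by -0.28 ± 0.42, Gpm6a by -0.15 ± 0.28 and Wt1 by -0.09 ± 0.39. The summed level of that list was 7.54 to 10.4 in AKP::Keap1 females, against 4.03 to 6.07 in AKP females, and 7.12 to 8.0 in AKP::Keap1 males, against 3.78 to 5.58 in AKP males. Most of that sum is the probes of Entpd2 (difference 0.65 ± 0.15, adjusted p = 0.0169) and Msln, which was not called. Of 14 striated muscle genes 7 were tested, and 3 rose. The rises were Tnni2 (1.36 ± 0.12, adjusted p = 0.00136), Tnnt2 and Acta1, which was kept only through its AKP::Keap1 arrays. Ckm, Mb and Ttn were not well above background on any array. The summed level of the tested striated muscle genes was 0.44 to 0.49 in the AKP::Keap1 livers, against 0.24 to 0.28 in the AKP livers.

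RNA of epithelial markers differed as well, and whether the cell makeup changed was not tested. Counts again stand against 21.7% of all genes called higher and 17.4% lower. Biliary genes rose in 8 of 10 cases, with a median of 3.11. Their summed level was 36.8 to 76.6 in AKP::Keap1 females, against 3.19 to 8.71 in AKP females. In males it was 68.3 to 80.4 in AKP::Keap1 livers, against 7.51 to 8.604 in AKP livers. Most of that sum is the bright probe of Spp1 (difference 3.28 ± 0.40, adjusted p = 0.0026). Hepatocyte genes fell in 6 of 12 cases and rose in 0, with a median of -0.56, and 2 to 12 were called lower over the alternatives. Endothelial genes fell in 5 of 10 cases and rose in 0 (median -0.24), and over the alternatives 0 to 7 were called lower and 0 to 1 higher. Macrophage genes rose in 4 of 10 cases (median 0.45), lymphocyte genes in 3 of 10 (0.44, with 2 to 7 called over the alternatives) and cell cycle genes in 10 of 10 (1.73). Among the cell cycle genes, Aurkb was kept only through its AKP::Keap1 arrays. Whether the marker differences go with those of these lists was not tested.

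Within each sex, the markers called were not the same. In females, 4 of 9 were called: Acta2 and Tagln higher and Reln and Postn lower, against 21.5% of all genes called, 12.6% higher and 8.93% lower. In males, 4 of 9 were called: Acta2, Tagln and Pdgfrb higher and Dcn lower, against 29.0% of all genes, 16.5% higher and 12.5% lower. The male calls rest on few arrays: without the second AKP male or the second AKP::Keap1 male 0 of the 9 were called, and without the first AKP::Keap1 male 1 and without the first AKP male 2. In females 1 of the 9 was called without the second AKP female, and between 3 and 4 in the other fits that leave out 1 array.

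**Figure D3:**
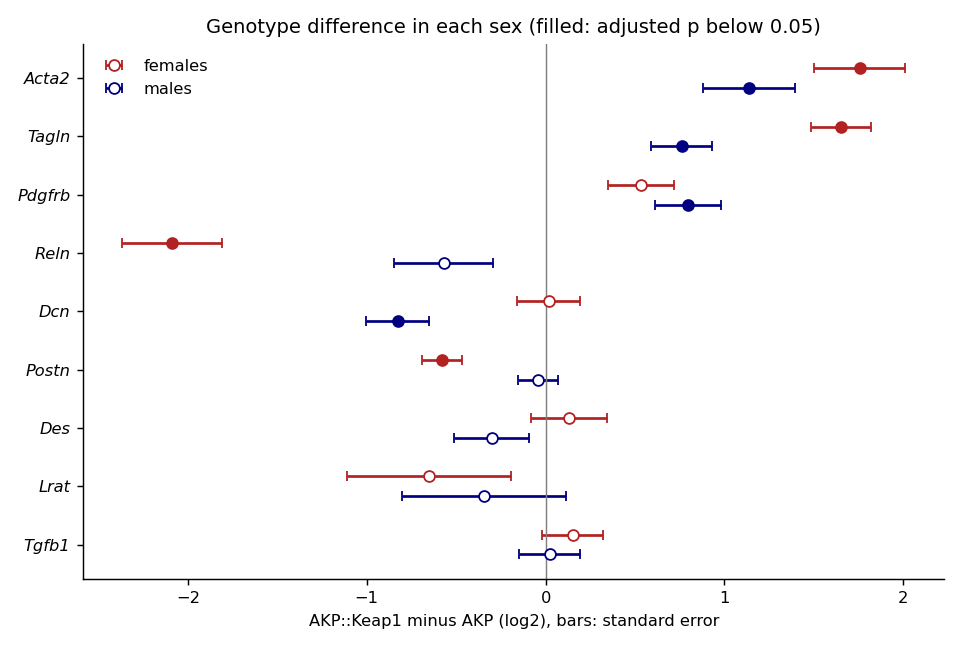
Genotype difference of the 9 tested markers in females (red) and males (blue), AKP::Keap1 minus AKP on the log2 scale, with standard errors. Filled points were called at an adjusted p below 0.05. Acta2 and Tagln are filled and to the right in both sexes, Reln and Postn are filled in females, and Dcn and Pdgfrb in males.

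The difference between the sexes was tested as an interaction, the female genotype difference minus the male one. By limma, 0 of 9 markers were called, against 1.67% of all genes, 0.448% higher and 1.23% lower. At an unadjusted p below 0.05 there were 4 of 9, against 23.6% of all genes. These were Reln (-1.52 ± 0.39, adjusted p = 0.0981), Tagln (0.89 ± 0.24, adjusted p = 0.105), Postn (-0.54 ± 0.16, adjusted p = 0.12) and Dcn (0.84 ± 0.25, adjusted p = 0.121). Tagln passed when arrays were shifted to their median in place of the 75th percentile (1.10, adjusted p = 0.0494, the lowest over its alternatives, against a highest of 0.257). A call in 1 sex and not in the other is therefore not shown to be a difference between the sexes for any of the 9.

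Between the sexes, over both genotypes, Reln, Postn and Tgfb1 were higher in females and Tagln was lower. That is 4 of 9 called, against 21.5% of all genes, 9.92% higher and 11.6% lower, and the median of the 9 was 0.35 against -0.03 over all genes. Tgfb1 differed by 0.77 ± 0.12 (1.71-fold, adjusted p = 0.0126), with all 4 female livers between -2.65 and -2.28 and all 4 male livers between -3.42 and -3.07. Postn differed by 0.44 ± 0.08 (adjusted p = 0.018) and did not overlap between the sexes either, and these 2 of 9 compare with 13.2% of all genes. Reln (1.03 ± 0.20, adjusted p = 0.0204) and Tagln (-0.70 ± 0.12, adjusted p = 0.016) overlapped between the sexes, since AKP females lay apart from the other 3 groups. Des (0.50 ± 0.15, adjusted p = 0.0599), Pdgfrb (0.35 ± 0.13, adjusted p = 0.101), Acta2 (0.28 ± 0.18, adjusted p = 0.297), Dcn (0.14 ± 0.12, adjusted p = 0.437) and Lrat (0.05 ± 0.32, adjusted p = 0.929) were not called. With the slide as a random block, 0 of the 4 sex calls were kept, and sex cannot be told apart from scan day.

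Among themselves, the markers differed in how alike their patterns were. After each gene was centred on its mean over the 8 arrays and divided by its SD, Reln and Postn lay closest, with a root mean square difference of 0.32 SD. Des and Tgfb1 followed at 0.56, Acta2 and Pdgfrb at 0.59 and Acta2 and Tagln at 0.65, while Tagln and Reln were farthest apart at 1.85. The values of every pair come from the same 8 arrays in 4 groups, so these are descriptions with no test.

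The same measure was taken over all genes except those named as clones or predicted genes. Among these, the genes most like Acta2 were Prp2 (0.146), Samd5 (0.162) and Hspb9 (0.174), and most like Tagln Teddm2 (0.125), Sec14l5 (0.146) and Disp3 (0.148). For Pdgfrb they were Plekha4 (0.101), Emp2 (0.111) and Zc2hc1a (0.122), and for Reln Usp47 (0.108), Ap1ar (0.135) and Pola2 (0.143). For Postn they were Vps72 (0.110), Usf1 (0.116) and Fbxl5 (0.131), and Dcn had none nearer than Kank3 (0.246), Rab13 (0.286) and Smim1 (0.288).

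**Figure D4:**
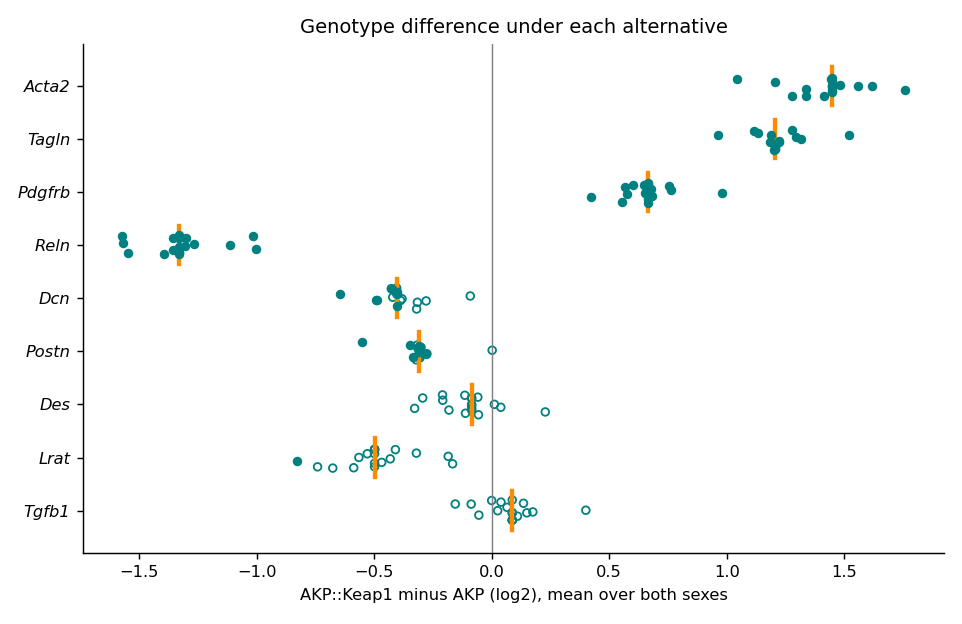
Genotype difference of the 9 tested markers over both sexes (AKP::Keap1 minus AKP, log2) as reported (orange bars) and under 18 alternative settings (points, filled where called). Acta2, Tagln, Pdgfrb and Reln are filled under all 18, Dcn under 7 and Postn under 9.

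Across 18 alternative settings the genotype calls of 4 markers were kept every time. Acta2 ranged between 1.04 and 1.76, Tagln between 0.96 and 1.52, Pdgfrb between 0.42 and 0.98, and Reln between -1.57 and -1.0. Dim genes had higher genotype differences than bright ones over the whole array, with a median of 0.49 in the dimmest 10% of genes and -0.16 in the brightest. Acta2 lay at the 38.6th percentile of brightness, Tagln at the 86.8th, Pdgfrb at the 50.01th and Reln at the 24.3th.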

How the data were processed

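Whole liver RNA of 8 mice was measured on Agilent mouse arrays (design 026655), with 500 ng of total RNA labelled with Cy3, per the labels' protocols. The deposited scanner files hold an intensity per spot, already background-subtracted. The software was Agilent Feature Extraction, version 10.7.3.1 per the file headers (which also name mm9) and 10.1 per the submitters' processing notes. Controls and outlier spots were left out, spots of 1 probe averaged, and log2 intensity shifted by each array's 75th percentile. Probes were named by accession through RefSeq (GRCm38.p6). Probes that passed the background mark on 2 or more of the 8 arrays were kept, and the brightest stood for each gene. Tests used limma 3.58.1 (R 4.3.3), 1 mean per group, two-sided. Replicates are separate mice.

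The members and lists were chosen with earlier results of these data known. Named genes are the members, up to 3 rises and 3 falls per list with the smallest adjusted p, genes that explain a count, and the 3 nearest genes to each called marker. The normexp alternative used the median signal in place of the planned mean signal, a choice made after seeing the data. Same-numbered mice had deviations correlating between -0.16 and 0.12, so the numbers do not pair them. The fit was tested on simulated data.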

Additional observations from a re-analysis of the deposited data

How the results depend on the processing

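Of the 9 tested markers, 6 were called by genotype, and no alternative moved that count by over 1.5 times. The slide as a random block cost 2 of the 6 genotype calls, Dcn (adjusted p = 0.222) and Postn (adjusted p = 0.168). The replicate block cost 1, Dcn (adjusted p = 0.0697, range over its alternatives 0.00695 to 0.704). In males the 4 calls became 2 with quantile normalization, and fits without 1 mouse gave 0 to 4. In females the 4 became 1 to 4 without 1 mouse. For the interaction, 0 became 1 with the shift to the array median. By sex, 4 became 0 with the slide as a random block, where the slide correlation was 0.235, and 2 to 5 without 1 mouse. Shifting to the array median moved the median genotype difference of all genes by -0.24, and values without scaling moved it by 0.31, so directions of small differences follow the scaling.

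Some differences changed sign, in every case to a value that was not called under that alternative, and Postn by genotype was the 1 called as reported. By genotype, Tgfb1 was -0.087 with quantile normalization, -0.15 with the median shift and -0.054 with normexp. Without scaling, Des was 0.23 and Postn 0.0023, and without 1 mouse Des ran between -0.21 and 0.039. In males, Tgfb1 was -0.27 with quantile normalization, -0.33 with the median shift, -0.21 with normexp and -0.15 to 0.198 without 1 mouse. Postn was 0.032 with quantile normalization and 0.48 without scaling, where Des was 0.22 and Lrat 0.18, and Lrat ran between -0.70 and 0.0101 without 1 mouse. In females, Dcn was -0.10 with quantile normalization, -0.12 with the median shift, -0.022 with normexp and -0.16 to 0.194 without 1 mouse. Des was -0.0046 with the median shift and -0.12 to 0.38 without 1 mouse, and Lrat -1.31 to 0.0134 without 1 mouse. In the interaction, Tgfb1 was -0.29 without scaling and -0.045 to 0.31 without 1 mouse, and Lrat -0.97 to 0.36 without 1 mouse. By sex, Lrat was -0.042 with the median shift, -0.12 without scaling and -0.29 to 0.38 without 1 mouse, and Dcn was -0.024 without scaling. The cause was not tested.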

Other observations

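Genes related to the markers also differed between the sexes, over both genotypes. Of all genes 21.5% were called, 9.92% higher in females and 11.6% lower. With the slide as a random block 305 of 15834 genes were called by sex, and sex cannot be told apart from scan day. Of 17 matrix genes, 4 were higher in females and 0 lower: Bgn, a small proteoglycan related to decorin (0.81 ± 0.14, limma adjusted p = 0.0165), Col5a1 (0.57 ± 0.09, adjusted p = 0.0136), Col1a2 (0.62 ± 0.14, adjusted p = 0.0319) and Thbs2 (0.47 ± 0.12, adjusted p = 0.0403). The share called in either direction is close to that of all genes. All 4 calls were higher, however, against 9.92% of all genes called higher. With the slide as a random block, 0 of the 17 were called. Of 14 genes of resting stellate cells, 3 were higher in females: Pth1r (0.79 ± 0.11, adjusted p = 0.0101), Ngfr (0.65 ± 0.12, adjusted p = 0.0196) and Ecm1 (0.51 ± 0.09, adjusted p = 0.0169). Here too the share called in either direction is close to that of all genes. All 3 calls were higher, against 9.92% of all genes called higher. With the slide as a random block, 1 of the 14 was called. Of the PDGF ligands, Pdgfc was higher in females (0.74 ± 0.15, adjusted p = 0.0221) and Pdgfa lower (-0.96 ± 0.14, adjusted p = 0.0115), and neither was called with the slide as a random block.

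Loxl4, a relative of Lox, had the largest sex difference among the 15 genes of collagen crosslinking and processing. It was at -1.09 and -2.95 in AKP::Keap1 females and -1.45 and -2.85 in AKP females, against -3.52 and -5.15 in AKP::Keap1 males and -5.59 and -4.65 in AKP males (2.64 ± 0.61, adjusted p = 0.0315, not called with the slide as a random block). All 4 female livers were above all 4 male livers, while the mice within 3 of the 4 groups differed by over 1 on the log2 scale.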
